A study of Drosophila melanogaster and Drosophila mauritiana and Drosophila melanogaster x Drosophila mauritiana with 7 samples.

Results

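The R1 site is a window of X chromosome heterochromatin at X:22371301-22400000 on build dm6 of Drosophila melanogaster, a span of 28.7 kb. Its members are the small RNA sequences of 23 to 30 nt in a table of transposon small RNAs that match the genome once and lie wholly inside the window. The rule found 2080 of the 350729 distinct sequences in the table, and 43262 other sequences also had 1 genomic hit. The annotated gene before the window, CG41562, ends 118887 bp upstream of it, the gene after it, CG14621, starts 44227 bp downstream, and 0 annotated genes lie inside. The place was chosen by its single-hit counts in these libraries, so the difference in its total between libraries is a description without a test.

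Small RNAs came from testes of adults aged 0 to 5 days in 3 genotypes. The hybrid was the F1 of P{}Hmr1 D. melanogaster and wild type D. mauritiana. Hmr1, its D. melanogaster parent, carried the P{}Hmr1 allele of Hmr, a gene known for the death of hybrids between these species, so the hybrid and this parent shared the allele's source. D. mauritiana was a wild type stock. The labels do not say which species was the mother, and so whether the hybrid testes carried the D. melanogaster X chromosome is not given. There was 1 library per genotype, with no replicate check and no p-value, and whether animals were pooled is not given. The table listed 175982 transposon reads in hybrid testes, 441146 in Hmr1 testes and 133204 in D. mauritiana testes, of which 19387, 39430 and 10908 had 1 hit. Levels are given per 1000000 of these transposon reads, because the depth of the libraries is not given. Values in parentheses are exact 95% limits, which allow for counting error and nothing else. All reads were placed on the D. melanogaster build, so reads of diverged D. mauritiana copies can be missing from every value below. For the same reason, 1 hit on this build does not show that a D. mauritiana or hybrid read came from this place. Cell type markers were not analysed here, and in whole testes fewer cells of a type and less RNA per cell cannot be told apart.

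PIWI-interacting RNAs (piRNAs) are small RNAs that guide Piwi proteins to transposon transcripts, and in the fly germline many of them are cut from transcripts of heterochromatic clusters of old transposon pieces. They tend to begin with U, written as T in the table. In the ping-pong cycle a Piwi protein cuts a target opposite its guide, which makes a second piRNA that overlaps the first by 10 nt at the 5′ end and tends to have A at base 10. R1 is a non-LTR retrotransposon that inserts into the large-subunit ribosomal RNA genes, which in D. melanogaster lie in the heterochromatin of the X and Y chromosomes.

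The sequences that lead the site in each library are shown first, because the most abundant one begins with T in the hybrid and Hmr1 and with C in D. mauritiana. It was a different sequence in each library, with 7 of 412 site reads in the hybrid, 139 of 5208 in Hmr1 and 40 of 167 in D. mauritiana. The capitals mark base 1 and base 10, the positions of the first-U and ping-pong preferences.
R1 right, X:22397752-22397776, minus strand: TgtgatcggCatcgaaatgaaaacc
R1 right, X:22397749-22397776, minus strand: TgtgatcggCatcgaaatgaaaaccact
R1 left, X:22371916-22371939, plus strand: TatcgtcttCattgcgacggcgcc
R1 left, X:22372621-22372646, plus strand: TgtacacacGacctacatcaagcttc
Gypsy6A left, X:22373809-22373831, plus strand: TaaccagaaTaaagagcggcagc
Baggins1 left, X:22371558-22371584, plus strand: TttcttcctAcagtgactttagtaagc
R1 left, X:22372696-22372720, plus strand: CagttaccgAccacgccttggtcac
R1 left, X:22372696-22372721, plus strand: CagttaccgAccacgccttggtcacc
The first 6 begin with T and were abundant in Hmr1 or the hybrid. The last pair, which begins with C and has A at base 10, led D. mauritiana.

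Small RNAs of the site were scarce in the hybrid and in D. mauritiana and abundant in Hmr1. The hybrid had 412 site reads (373 to 454), Hmr1 had 5208 (5068 to 5351) and D. mauritiana had 167 (143 to 194). This was 2341 per 1000000 transposon reads (2121 to 2578) in hybrid testes, 11806 (11489 to 12129) in Hmr1 testes and 1254 (1071 to 1459) in D. mauritiana testes. The order of the libraries was Hmr1, hybrid, D. mauritiana. The hybrid level was 0.198 times that of Hmr1 (0.179 to 0.219) and 1.87 times that of D. mauritiana (1.56 to 2.25), and the Hmr1 level was 9.42 times that of D. mauritiana (8.07 to 11.1). The hybrid stood at 0.359 times the mean of its parents. In a window narrowed by 5 kb at both ends, which holds 1 of the 3 blocks described below and almost no R1, the hybrid was at 0.578 times the Hmr1 level (0.420 to 0.782). Of all single-hit transposon reads, the site gave 2.13% in hybrid testes, 13.2% in Hmr1 testes and 1.53% in D. mauritiana testes.

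Summed over the rest of the genome, single-hit sequences did not have this order, while those next to the site did. The sum was 107824 reads per 1000000 in hybrid testes, 77575 in Hmr1 testes and 80636 in D. mauritiana testes. A window of equal length before the site had 73.9 per 1000000 in hybrid testes, 517 in Hmr1 testes and 37.5 in D. mauritiana testes, and one after it had 352, 696 and 0. Before the site, the hybrid-to-D. mauritiana ratio rests on 13 and 5 reads. It was 1.97 (0.658 to 7.05), an interval that includes 1. The hybrid-to-Hmr1 ratio at the site was 0.143 times (0.129 to 0.158) the ratio of those other sequences. The Hmr1-to-D. mauritiana ratio at the site was 9.79 times (8.38 to 11.5) theirs.

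The sequences fell into 3 blocks separated by gaps of more than 2000 bp, with 2 sequences of 1 Hmr1 read each between them. The left block, X:22371348-22375474, held 1418 sequences with 285 reads in hybrid testes, 3650 in Hmr1 testes and 151 in D. mauritiana testes. The right block, X:22396971-22399974, held 455 sequences with 74 hybrid, 1328 Hmr1 and 14 D. mauritiana reads. Both are led by R1 with Gypsy6A next to it, and together they gave most reads of each library. The middle block, X:22382281-22386770, held 205 sequences with 53 hybrid, 228 Hmr1 and 2 D. mauritiana reads and had no R1. It took 12.9% (9.79 to 16.5) of hybrid site reads and 4.38% (3.84 to 4.97) of Hmr1 site reads. In all, the sequences covered 4553 of 28700 bp, or 15.9%, with 2894 bp in hybrid testes, 4401 in Hmr1 testes and 696 in D. mauritiana testes.

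**Figure D1:**
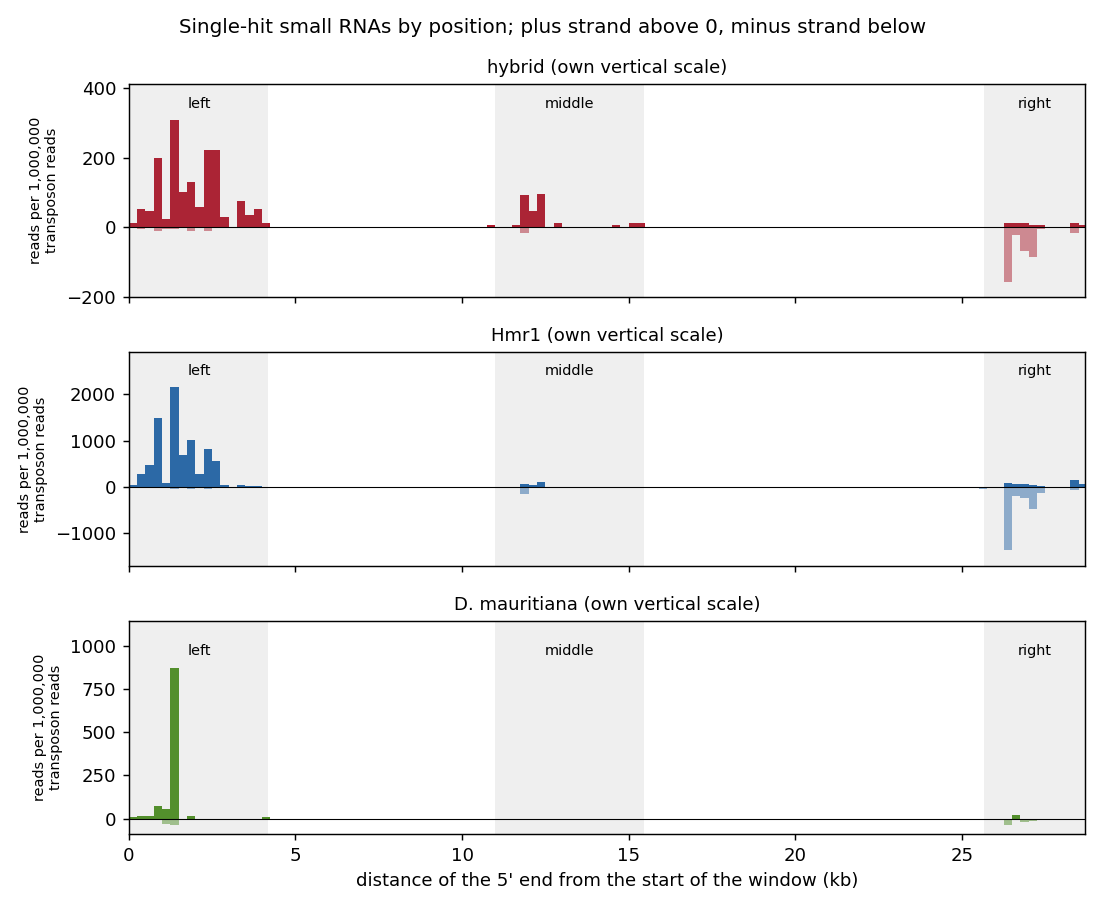
Site reads by position of the 5′ end, in 250-bp bins, as reads per 1000000 transposon reads of the library (vertical axis, a scale of its own in each panel) against distance from the start of the window in kb; plus-strand reads stand above 0, minus-strand reads, in a paler shade, below, and grey bands mark the 3 blocks. Plus-strand reads fill the left block and minus-strand reads most of the right block in the hybrid and Hmr1, while D. mauritiana reads stand in 1 peak in the left block, where the second 1-kb bin holds 80.8% of its site reads.

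In 4 places, 1-kb bins held at least 10% of the site reads of a library. The bin from 1 to 2 kb was the highest in each, with 103 reads or 25.0% (20.9 to 29.5) in hybrid testes, 1791 or 34.4% (33.1 to 35.7) in Hmr1 testes and 135 or 80.8% (74.0 to 86.5) in D. mauritiana testes. The first bin held 57 hybrid, 1019 Hmr1 and 15 D. mauritiana reads. The bin from 2 to 3 kb, where R1 gives way to Gypsy6A, held 95 hybrid reads or 23.1% and 797 Hmr1 reads or 15.3%. It had 0 of the 167 D. mauritiana reads, which allows a share of up to 1.796% if a count of 3 is taken as the limit of a 0. The bin from 26 to 27 kb, in the right-hand R1 copy, held 50 hybrid, 888 Hmr1 and 11 D. mauritiana reads.

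R1 (R1_DM in the annotation) made up 1502 of the 2080 sequences and most reads, with 254 of 412 or 61.7% (56.8 to 66.4) in hybrid testes, 4232 of 5208 or 81.3% (80.2 to 82.3) in Hmr1 testes and 160 of 167 or 95.8% (91.6 to 98.3) in D. mauritiana testes. The hybrid level was 0.150 times that of Hmr1 (0.132 to 0.171), the lowest ratio of the repeats with more than 50 reads at the site. Below that cut, G_DM stood lower, at 0.0557 (0.00138 to 0.327) on 1 hybrid and 45 Hmr1 reads. The hybrid level of R1 was 1.202 times that of D. mauritiana (0.982 to 1.47), an interval that includes 1. Of R1 reads with 1 hit on the D. melanogaster build, most were placed at the site. They numbered 254 of 313 or 81.2% in hybrid testes, 4232 of 4527 or 93.5% in Hmr1 testes and 160 of 283 or 56.5% in D. mauritiana testes. Single-hit R1 reads outside the window numbered 59 in hybrid testes, 295 in Hmr1 testes and 123 in D. mauritiana testes. Outside, the hybrid level was 0.501 times that of Hmr1 (0.372 to 0.665), so the ratio at the site was 0.300 times (0.219 to 0.415) the ratio outside. Of all R1 reads in the table, multi-hit ones included, the site's single-hit sequences gave 13.3% in hybrid testes, 18.7% in Hmr1 testes and 4.10% in D. mauritiana testes. Over all these R1 reads, 1916 in hybrid and 22636 in Hmr1 testes, the hybrid level was 0.212 times that of Hmr1 (0.202 to 0.222). A low hybrid level of R1 was thus not particular to the site.

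The left R1 copy, X:22371912-22373701, had 188 hybrid, 3091 Hmr1 and 147 D. mauritiana reads, and the right copy, X:22396971-22398526, had 66 hybrid, 1140 Hmr1 and 13 D. mauritiana reads. The hybrid-to-Hmr1 ratio was 0.152 (0.131 to 0.177) in the left copy and 0.145 (0.111 to 0.186) in the right copy, and the first was 1.05 times the second (0.783 to 1.42). The Hmr1-to-D. mauritiana ratio differed between the copies, at 6.35 (5.38 to 7.54) on the left and 26.5 (15.4 to 49.9) on the right. The left ratio was 0.240 times the right (0.124 to 0.425). Of the 147 D. mauritiana reads on the left, 81 began at X:22372696 and 16 at X:22372695, where Hmr1 had 16 and 24. The difference between the copies was not tested without these neighbouring ends, so it is not read as a property of the whole copy. On the right it rests on 13 D. mauritiana reads.

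The hybrid-to-Hmr1 ratio differed between the repeats of the site, and for HOBO and STALKER4_I-int its interval included 1. Gypsy6A_LTR, the long terminal repeat of a gypsy-type retrotransposon, had 57 hybrid, 491 Hmr1 and 1 D. mauritiana reads, a hybrid level 0.291 times that of Hmr1 (0.217 to 0.383). HETRP_DM, a satellite repeat, had 27 hybrid, 148 Hmr1 and 1 D. mauritiana reads, a ratio of 0.457 (0.292 to 0.693). Baggins1, a non-LTR retrotransposon, had 12 hybrid, 150 Hmr1 and 3 D. mauritiana reads, a ratio of 0.201 (0.101 to 0.361). HOBO, a DNA transposon that spread through D. melanogaster in recent times, had 23 hybrid, 66 Hmr1 and 1 D. mauritiana reads, a ratio of 0.874 (0.519 to 1.42). STALKER4_I-int, the internal part of a gypsy-type retrotransposon, had 35 hybrid, 61 Hmr1 and 1 D. mauritiana reads, a ratio of 1.44 (0.921 to 2.21). The hybrid-to-Hmr1 ratio of STALKER4_I-int was 9.55 times (5.99 to 15.02) that of R1 at the site, that of HOBO 5.80 times (3.39 to 9.64), that of HETRP_DM 3.04 times (1.90 to 4.71) and that of Gypsy6A_LTR 1.93 times (1.40 to 2.63). For Baggins1 the factor was 1.33 (0.664 to 2.44), and its interval includes 1. G_DM, a non-LTR retrotransposon at the window's right edge, had 1 hybrid, 45 Hmr1 and 0 D. mauritiana reads, a ratio of 0.0557 (0.00138 to 0.327). The remaining repeats, DNAREP1_DM, ROVER-LTR_DM, PROTOP_B and PROTOP_A, had at most 1 hybrid and 7 Hmr1 reads each and 0 D. mauritiana reads.

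Where a repeat also had single-hit reads elsewhere, the site's ratio could be set beside it. STALKER4_I-int outside the window was 2.29 times as abundant in the hybrid as in Hmr1 (2.07 to 2.52), and the ratio at the site was 0.629 times this (0.398 to 0.980). HOBO outside was at 0.544 (0.387 to 0.751), and the ratio at the site was 1.60 times this (0.861 to 2.93). For Gypsy6A_LTR the ratio at the site was 0.391 times (0.196 to 0.817) the one outside, which rests on 14 hybrid and 47 Hmr1 reads. For Baggins1 it was 0.551 times (0.272 to 1.02). Because the window was chosen by these counts, the factors are a description. The order of the libraries outside the window varied by repeat. Gypsy6A_LTR and HOBO were highest in Hmr1 and lowest in D. mauritiana there. Per 1000000, Gypsy6A_LTR was at 79.6 in hybrid testes, 107 in Hmr1 testes and 30.03 in D. mauritiana testes. Its hybrid-to-Hmr1 interval, 0.380 to 1.38, includes 1, and so does its hybrid-to-D. mauritiana interval, 0.832 to 11.1. HOBO was at 261, 481 and 22.5 in the same order of libraries. HETRP_DM also had this order, on 4 hybrid, 11 Hmr1 and 1 D. mauritiana reads, with a hybrid-to-Hmr1 interval of 0.212 to 3.08 that includes 1. R1 and Baggins1 were highest in D. mauritiana and lowest in the hybrid, with Baggins1 at 864, 2371 and 2995. STALKER4_I-int was highest in the hybrid, at 4506, 1970 and 683.

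**Figure D2:**
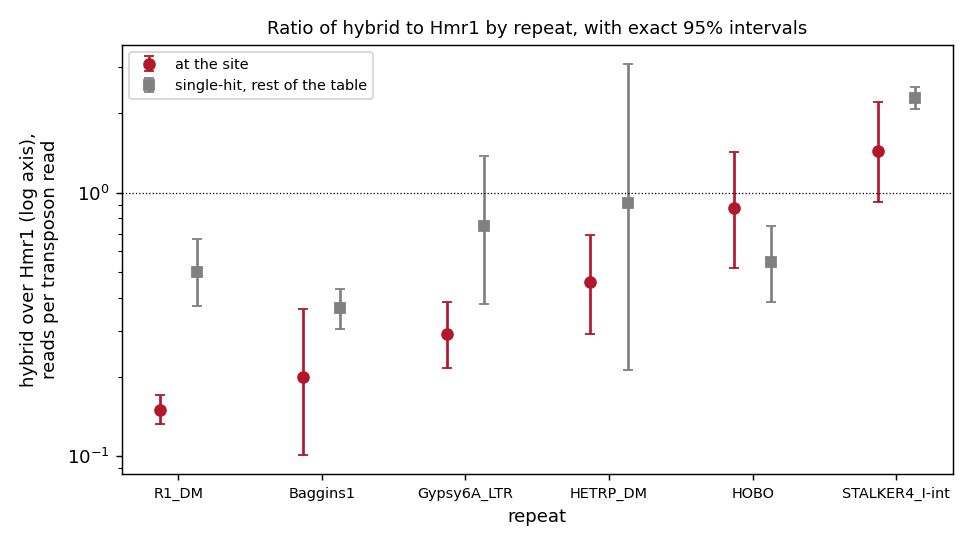
Ratio of the hybrid level to the Hmr1 level (log axis, reads per transposon read of the library) for the 6 repeats with at least 50 site reads over both libraries and single-hit reads elsewhere, at the site (circles) and in the rest of the single-hit table (squares), with exact 95% intervals. At the site the ratios range between 0.150 for R1_DM and 1.44 for STALKER4_I-int, and R1_DM outside stands at 0.501.

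Each outer block had 1 main strand in the hybrid and Hmr1, while in the middle block these libraries differed. In the left block plus-strand reads numbered 276 of 285 or 96.8% (94.1 to 98.5) in hybrid testes, 3555 of 3650 or 97.4% (96.8 to 97.9) in Hmr1 testes and 141 of 151 or 93.4% (88.2 to 96.8) in D. mauritiana testes. In the right block plus-strand reads were the minority, with 11 of 74 or 14.9% (7.66 to 25.0) in hybrid testes, 229 of 1328 or 17.2% (15.2 to 19.4) in Hmr1 testes and 3 of 14 or 21.4% (4.66 to 50.8) in D. mauritiana testes, too few to show a main strand there. In the middle block they numbered 50 of 53 or 94.3% (84.3 to 98.8) in the hybrid, against 123 of 228 or 53.9% (47.2 to 60.5) in Hmr1. On the plus strand of the middle block the hybrid was at 1.02 times the Hmr1 level (0.718 to 1.43), and on its minus strand, with 3 hybrid and 105 Hmr1 reads, at 0.0716 times (0.0145 to 0.215). The first ratio was 14.1 times the second (4.36 to 72.9). The same held within HETRP_DM, which had 24 of 27 hybrid reads and 62 of 148 Hmr1 reads on the plus strand, a difference of 10.96 times in the ratio (3.12 to 59.4). HOBO had 23 of 23 hybrid reads (85.2 to 100%) and 54 of 66 Hmr1 reads or 81.8% (70.4 to 90.2) on the plus strand. The rest of the single-hit table moved the same way, with 84.1% plus-strand reads in hybrid testes, 63.0% in Hmr1 testes and 54.3% in D. mauritiana testes, and the part of this in the block's difference was not tested.

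**Figure D3:**
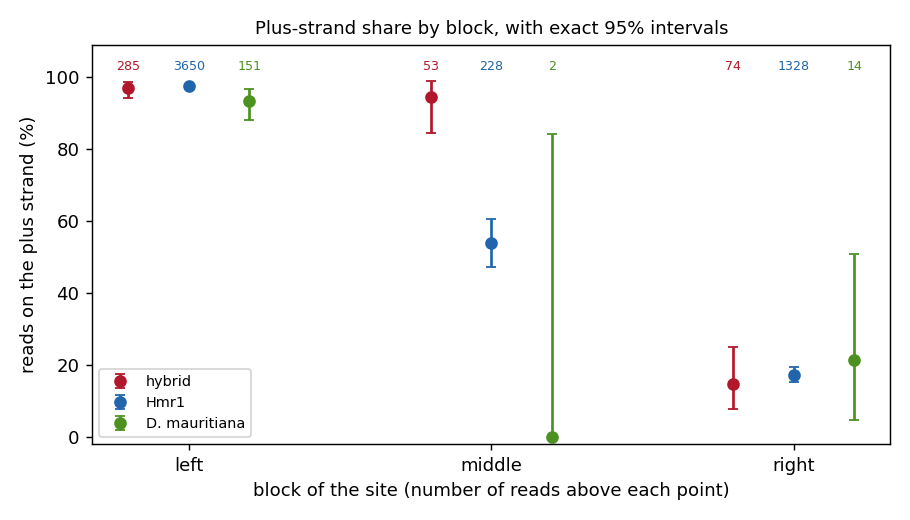
Share of reads on the plus strand (%) in each block of the site by genotype (hybrid, Hmr1, D. mauritiana), with exact 95% intervals and the number of reads above each point. The 3 genotypes overlap in the right block and lie above 93% in the left block, and in the middle block the hybrid stands at 94.3% and Hmr1 at 53.9%.

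The outer blocks mirror each other in part of their sequence as well as in strand. Of 1859 distinct words of 15 nt in left-block plus-strand sequences and 426 in right-block minus-strand sequences, 91 were shared. Of 608 words on the left minus strand and 571 on the right plus strand, 36 were shared, so most words were not. Between sequences of the same strand the number of shared words was 0 in both cases. Within R1 the counts were 70, 21, 0 and 0, and within Gypsy6A_LTR 21, 15, 0 and 0. These words are shared although each full sequence has 1 hit, so the R1 and Gypsy6A_LTR stretches that share them lie in opposite orientation in the outer blocks. For the reads of these repeats in the outer blocks, the main strand, plus on the left and minus on the right, held 293 of 311 or 94.2% (91.0 to 96.5) in hybrid testes, 4447 of 4722 or 94.2% (93.5 to 94.8) in Hmr1 testes and 148 of 161 or 91.9% (86.6 to 95.6) in D. mauritiana testes. Whether that strand is sense or antisense to R1 was not analysed here. On the right, 2 repeats departed from the minus strand. G_DM had 1 of 1 hybrid and 45 of 45 Hmr1 reads (92.1 to 100%) on the plus strand. Gypsy6A_LTR was mixed, with 3 of 7 hybrid and 61 of 143 Hmr1 reads on the plus strand, and its hybrid-to-Hmr1 ratio was 2.93 times higher (1.28 to 7.85) on the left than on the right.

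T was the most frequent first base at the site in the hybrid and Hmr1, and C in D. mauritiana. T came first in 278 of 412 site reads or 67.5% (62.7 to 72.0) in hybrid testes, 3201 of 5208 or 61.5% (60.1 to 62.8) in Hmr1 testes and 60 of 167 or 35.9% (28.7 to 43.7) in D. mauritiana testes. With each sequence counted once, these shares were 63.0% in hybrid testes, 46.2% in Hmr1 testes and 58.8% in D. mauritiana testes, so the Hmr1 and D. mauritiana values rest on abundant sequences. In other single-hit sequences T came first in 72.9%, 66.1% and 57.8% of hybrid, Hmr1 and D. mauritiana reads. A stood at base 10 in 28.9% (24.6 to 33.5) of hybrid, 22.7% (21.6 to 23.9) of Hmr1 and 58.7% (50.8 to 66.2) of D. mauritiana site reads, against 28.5%, 31.2% and 26.7% in the other single-hit sequences. In Hmr1 the strands of outer-block R1 and Gypsy6A_LTR differed by reads, with T first in 63.0% (61.6 to 64.4) of main-strand and 42.5% (36.6 to 48.6) of other-strand reads. Over distinct sequences the T shares were 44.5% (41.9 to 47.2) and 43.0% (36.3 to 49.9), so the T difference rests on abundant sequences. A stood at base 10 in 20.7% (19.5 to 21.9) of main-strand and 38.5% (32.8 to 44.6) of other-strand reads, and in 24.7% (22.5 to 27.1) and 37.9% (31.3 to 44.7) with each sequence counted once. The hybrid had 18 other-strand reads there, 13 with T first and 7 with A at base 10, too few to set beside the main strand.

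The D. mauritiana values came from 1 place. Its leading 5′ end, X:22372696 on the plus strand of the left R1 copy, had 1 hybrid, 16 Hmr1 and 81 D. mauritiana reads, or 48.5% of the D. mauritiana site reads, in 5 sequences that differ at the 3′ end. The sequence of 25 nt shown above had 0 hybrid, 4 Hmr1 and 40 D. mauritiana reads, and that of 26 nt had 1, 0 and 22. The neighbouring end 1 base upstream, X:22372695, had 0 hybrid, 24 Hmr1 and 16 D. mauritiana reads. Per 1000000 transposon reads, the leading end was at 5.68 in hybrid testes, 36.3 in Hmr1 testes and 608 in D. mauritiana testes, so that it was highest in D. mauritiana although the site as a whole was lowest there. Without these 2 ends, T came first in 44 of the other 70 D. mauritiana reads or 62.9% (50.5 to 74.1), and A stood at base 10 in 24.3% (14.8 to 36.0). The whole table held 1 sequence that starts with 10 nt complementary to the start of the leading end, with 0 hybrid, 1 Hmr1 and 0 D. mauritiana reads.

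Hybrid site reads were longer on average than those of either parent, and so were the other single-hit reads of the hybrid. The mean length at the site was 25.5 ± 1.35 nt in hybrid testes, 25.0 ± 1.33 nt in Hmr1 testes and 25.0 ± 1.11 nt in D. mauritiana testes (SD over reads). The most frequent length was 26 nt in hybrid testes, with 28.6% of site reads, and 25 nt in the parents, with 29.99% in Hmr1 testes and 41.3% in D. mauritiana testes. Other single-hit sequences averaged 25.6 nt in hybrid testes, 25.0 nt in Hmr1 testes and 25.0 nt in D. mauritiana testes, with the same most frequent lengths.

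**Figure D4:**
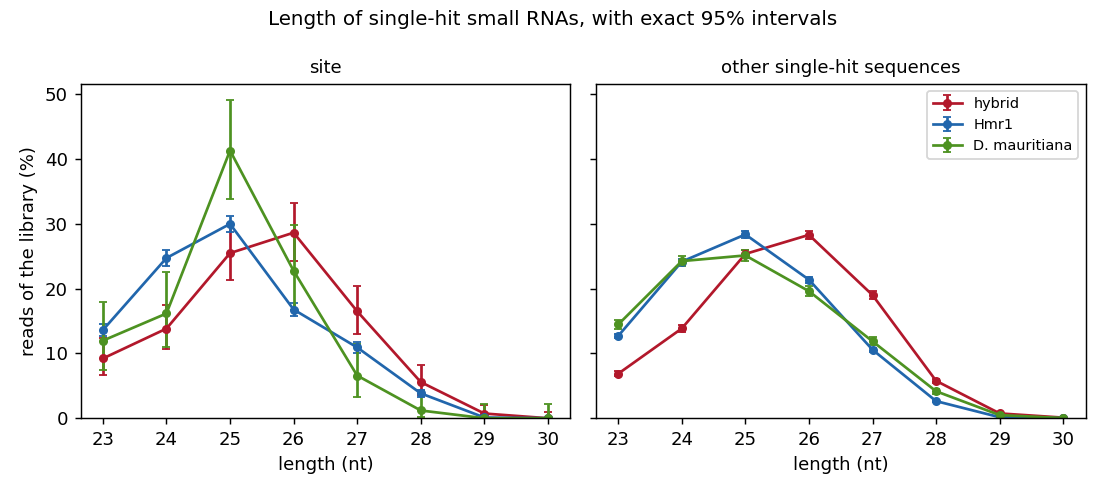
Share of reads (%) by length in nt for the site, on the left, and for all other single-hit sequences, on the right, by genotype (hybrid, Hmr1, D. mauritiana), with exact 95% intervals. The hybrid peaks at 26 nt and both parents at 25 nt in either panel.

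Most sequences of the site had reads in 1 library, and most rested on 1 read in the library that held them. Of the 43262 other single-hit sequences, 13925 had reads in hybrid testes, 24738 in Hmr1 testes and 6504 in D. mauritiana testes. These numbers add to little more than 43262, so few of those sequences can be in more than 1 library. Their sharing by pair of libraries, 5′ end and repeat was not counted, so nothing particular to the site is read from the counts below. Of the 2080 sequences, 9 had reads in all 3 libraries, 208 in 2 and 1863 in 1. In the hybrid 286 of 332 sequences rested on 1 read, in Hmr1 1180 of 1906 and in D. mauritiana 50 of 68. Hybrid sequences were also found in Hmr1 in 187 of 332 cases or 56.3%, and in D. mauritiana in 12. By 5′ end, 195 of the hybrid's 269 ends or 72.5%, with 79.9% of its site reads, were also used in Hmr1. The share without an Hmr1 counterpart varied by repeat. It was 60 of 201 hybrid sequences for R1, 16 of 42 for Gypsy6A_LTR, 20 of 29 for STALKER4_I-int, 19 of 22 for HOBO and 24 of 27 for HETRP_DM. Most of these hybrid sequences had 1 read, and 1 of STALKER4_I-int had 4. At the site Hmr1 had 4232 reads of R1, 491 of Gypsy6A_LTR, 61 of STALKER4_I-int, 66 of HOBO and 148 of HETRP_DM. The part of these read numbers in the differences between repeats was not tested.

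Single sequences could be compared where they had at least 10 reads over 2 libraries, with a pseudocount of 1 read. Of the 2080 sequences, 96 passed for the hybrid and Hmr1, of which 0 stood 2-fold or more above Hmr1 in the hybrid and 82 stood 2-fold or more below it. Among all 350 single-hit sequences of the table that passed, 25.7% stood that far above and 64% that far below. Their median log2 ratio was -2.07, against -2.26 at the site. The site's own sequences are part of this background, here and in the next comparisons, which draws it toward the site's values. For Hmr1 and D. mauritiana 94 passed, with 83 higher and 4 lower in Hmr1, against 69% and 28.3% of 336 sequences in the table. For the hybrid and D. mauritiana 3 passed, all lower in the hybrid, against 55.9% lower and 39.8% higher of 161. A sequence passes mainly through the library where it is abundant, and the window was chosen by these same counts, so nothing is read from these shares.

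The leading 5′ end of the hybrid and of Hmr1 was the same, X:22397776 on the minus strand of the right R1 copy. It had 14 hybrid, 382 Hmr1 and 1 D. mauritiana reads, or 3.40% of site reads in the hybrid and 7.33% in Hmr1. Of its sequences, the one of 25 nt had 6 hybrid, 139 Hmr1 and 1 D. mauritiana reads, a log2 ratio of -3.00 between hybrid and Hmr1. The one of 28 nt had 2 hybrid, 113 Hmr1 and 0 D. mauritiana reads, with a log2 ratio of -3.92, the lowest among the sequences that passed. The left R1 sequence at X:22371916 had 3 hybrid, 91 Hmr1 and 1 D. mauritiana reads, and the one at X:22372621 had 7, 48 and 0, the most of any sequence in the hybrid. At the other end of the range, the Gypsy6A_LTR sequence of 23 nt had 6 hybrid, 9 Hmr1 and 0 D. mauritiana reads, a log2 ratio of 0.81, the highest among those that passed. Its 5′ end, X:22373809, had 13 hybrid, 50 Hmr1 and 0 D. mauritiana reads. The Baggins1 sequence had 6 hybrid, 28 Hmr1 and 1 D. mauritiana reads.

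The lowest ratios after that of the 28-nt sequence belonged to a pair of R1 sequences with 0 hybrid reads, shown here for their place in each copy. The capitals mark base 1 and base 10.
R1 right, X:22397789-22397813, minus strand: GaaacccacGcatctgtggcaggcg
R1 left, X:22372262-22372286, plus strand: TtccttcagGcagcacatccattcc
The right-hand one had 36 Hmr1 and 0 D. mauritiana reads and the left-hand one 28 Hmr1 reads and 1 D. mauritiana read, and in the hybrid a count of 3 would be 17.0 per 1000000. On the other side, 2 R1 sequences came next to the Gypsy6A_LTR one, that at X:22371913-22371939 with 2 hybrid and 8 Hmr1 reads and that at X:22373637-22373662 with 3 hybrid and 11 Hmr1 reads. Their log2 ratio was -0.26 each, and the reads are too few to place them on either side of equality.

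Overlaps between opposite-strand 5′ ends had their peak at 10 nt in the hybrid and Hmr1, and in Hmr1 the peak came mostly from 1 pair of ends. Weighted by reads, 10-nt overlaps were 16 of 76 or 21.1% of overlaps of 1 to 20 nt in hybrid testes, 3878 of 11522 or 33.7% in Hmr1 testes and 4 of 117 or 3.42% in D. mauritiana testes. In the hybrid an overlap of 16 nt also had 16 pairs, and in D. mauritiana 81 pairs at 15 nt, all from its leading end, came first. Of the Hmr1 10-nt overlaps, 3056 or 78.8% paired the minus-strand end X:22397776, with 382 reads, with the plus-strand end X:22397767, with 8 reads. With each pair of ends counted once, the 10-nt share was 5 of 30 or 16.7% in hybrid testes, 72 of 1106 or 6.51% in Hmr1 testes and 1 of 8 in D. mauritiana testes. Without the reads at X:22397776 the read-weighted share was 33.3% in the hybrid and 10.7% in Hmr1, an alternative chosen after seeing the data. In other single-hit sequences the read-weighted share was 13.4% in hybrid testes, 20.4% in Hmr1 testes and 60.3% in D. mauritiana testes. With each pair of ends counted once it was 8.67%, 8.39% and 20.3% there, in the same order. The Hmr1 share at the site was thus above that elsewhere by reads and below it by pairs of ends. One sequence from each of the ends X:22397776 and X:22397767, with 139 of 382 and 4 of 8 Hmr1 reads, is printed with the first 10 nt in capitals, which are the reverse complement of each other.
Minus strand, X:22397752-22397776: TGTGATCGGCatcgaaatgaaaacc
Plus strand, X:22397767-22397791: GCCGATCACAggtccgcaccttcgc
The plus-strand sequence has A at base 10 opposite the first T of the other, and had 0 hybrid, 4 Hmr1 and 0 D. mauritiana reads. The hybrid had 14 reads at the minus-strand end and 0 at this plus-strand sequence, and its own 10-nt overlaps came from 5 pairs of ends, led by 7 reads at X:22371558 paired with 1 read at X:22371567 in Baggins1.

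**Figure D5:**
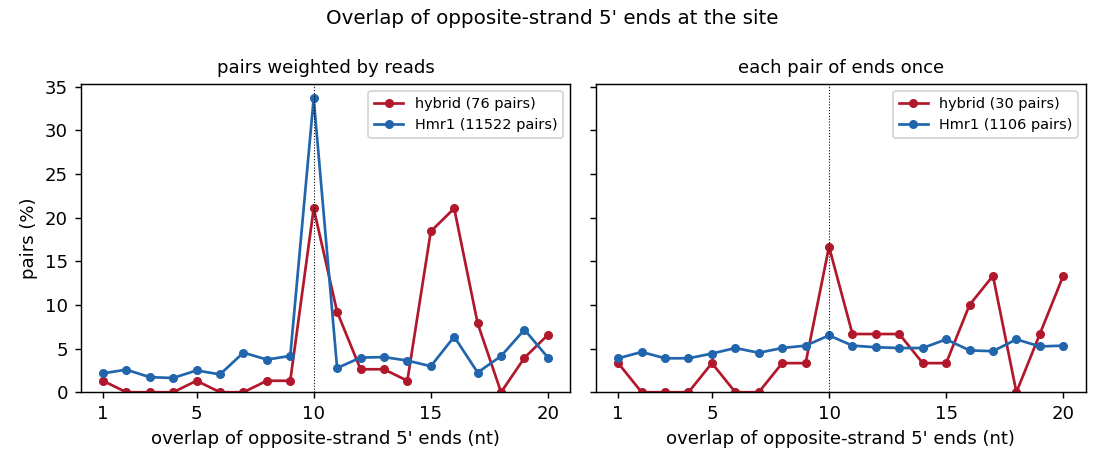
Share of pairs (%) by overlap in nt between 5′ ends on opposite strands at the site, in the hybrid and Hmr1, with pairs weighted by reads on the left and each pair of ends counted once on the right; the dotted line marks 10 nt. The Hmr1 peak of 33.7% at 10 nt on the left is 6.51% on the right, and the hybrid curves rest on 76 and 30 pairs.

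Head-to-tail spacing, in which a read ends 1 nt before the next begins on the same strand, is the mark of phased piRNA production. Distances of 1 nt were 79 of 636 distances of 1 to 20 nt or 12.4% in the hybrid, the most frequent distance there. They were 14749 of 182022 or 8.10% in Hmr1, where 13 nt was more frequent with 22849 pairs. D. mauritiana had 1 of 20. With each pair of positions counted once, the share was 9.81% in the hybrid and 5.72% in Hmr1, and 1 nt was the most frequent distance in both. Elsewhere in the single-hit table the read-weighted share was 9.62% in hybrid testes, 17.4% in Hmr1 testes and 7.48% in D. mauritiana testes. With each pair of positions counted once it was 6.99%, 6.77% and 9.13% there, in the same order.

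The members at the edges of the window had few reads, as had their nearest neighbours outside it. The first sequence inside, in Baggins1 at X:22371348-22371371, had 0 hybrid, 7 Hmr1 and 0 D. mauritiana reads, and the last, in G_DM at X:22399948-22399974, had 0, 1 and 0. The nearest single-hit sequence before the window was in NINJA_LTR at X:22369449-22369475, with 0 hybrid, 1 Hmr1 and 0 D. mauritiana reads. The nearest after it was in G_DM at X:22400025-22400049, with 2 hybrid, 0 Hmr1 and 0 D. mauritiana reads, so the right edge cuts through a G_DM stretch. The equal window before the site had 13 hybrid, 228 Hmr1 and 5 D. mauritiana reads, and one after it 62 hybrid, 307 Hmr1 and 0 D. mauritiana reads. The hybrid-to-Hmr1 ratio was 0.143 (0.0749 to 0.249) before and 0.506 (0.379 to 0.667) after, and the site's ratio was 1.39 times (0.786 to 2.67) the first and 0.392 times (0.291 to 0.533) the second.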

How the data were processed

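Small RNAs selected on gels from adult testes were counted in 3 libraries, 1 per genotype. The values are read counts deposited by the authors, not scaled, with 1 listed position, strand, hit number and repeat for each sequence. Tools were cutadapt 1.8.1, Bowtie 1.2.2 and Bowtie 0.12.7 with build dm6, per the submitters' processing notes, and the sources used here do not give the mismatches allowed. The members and lists were chosen with earlier results of these data known.

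Counts have exact Poisson intervals, shares Clopper-Pearson intervals and ratios conditional binomial intervals at 95%, and ratios of 2 ratios have the conditional odds ratio interval. Reads carry no molecular identifiers, so counting error alone is covered. A count of 3 reads is 17.0 per 1000000 transposon reads in hybrid testes, 6.80 in Hmr1 testes and 22.5 in D. mauritiana testes. Blocks were split at gaps over 2000 bp. Named sequences were the 5 with most reads in each library, and the 3 highest and 3 lowest hybrid-to-Hmr1 ratios among those with 10 or more reads; of a set sharing a 5′ end, not all are printed. The partner of the leading Hmr1 end was added after its values were seen. Alternatives changed the denominator, the window, lengths, the repeat and the weight of single sequences. The other tables of the series, with 92 columns of per-sample values, were not used here. Procedures were tested on simulated data with Python 3.11.15, numpy 2.4.6, pandas 2.3.3 and scipy 1.17.1; gene positions came from a RefSeq table of the same build.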

Additional observations from a re-analysis of the deposited data

How the results depend on the processing

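Across 85 alternatives to 28 results, 41 values stayed within the counting interval of the reported value (counts within 1.5 times). The other 44 moved outside it, and the cause was not tested. Reversal was defined as crossing equality, for level ratios and plus-strand shares alone, and 0 of those reversed. Order between libraries was not covered. With each sequence counted once, T-first shares went from 61.5% in Hmr1 and 35.9% in D. mauritiana to 46.2% and 58.8%. With each pair of ends counted once, 10-nt overlaps went from 21.1% in the hybrid and 33.7% in Hmr1 to 16.7% and 6.51%. Both orders changed. No paired analysis was possible because each genotype has 1 library and no result comes from a test.
With single-hit reads as the denominator, the ratio was 0.161 for the hybrid over Hmr1 and 1.39 for the hybrid over D. mauritiana. In a window narrowed by 5 kb at both ends, which leaves out both outer blocks, the ratios were 0.578 for the hybrid over Hmr1, 20.1 for the hybrid over D. mauritiana and 34.7 for Hmr1 over D. mauritiana, and for R1 alone they were 0.150, 1.202 and 7.99 in the same order of pairs. With each sequence counted once the hybrid was at 0.292 times Hmr1 and 2.66 times D. mauritiana. Without the most abundant sequence of each library the hybrid was at 2.40 and Hmr1 at 12.0 times D. mauritiana. With each sequence counted once, plus-strand shares were 78.3% in Hmr1 and 69.1% in D. mauritiana, T came first in 46.2% and 58.8%, and A stood at base 10 in 27.6% and 30.9%. Without the most abundant sequences, Hmr1 had 76.9% plus-strand reads and 60.1% with T first, and D. mauritiana 46.8% with T first and 46.0% with A at base 10. For R1 alone, plus-strand reads were 74.0% in the hybrid, and A stood at base 10 in 20.2% in Hmr1. With each pair of positions counted once, 10-nt overlaps were 6.51% in Hmr1 and 12.5% in D. mauritiana, and 1-nt distances 9.81% in the hybrid and 5.72% in Hmr1. Without the most abundant sequences the 10-nt overlaps were 27.4% and the 1-nt distances 8.43% in Hmr1. The number of sequences at least 2-fold apart was 189 with a minimum of 5 reads, 26 with a minimum of 20 and 17 with a pseudocount of 5 for the hybrid and Hmr1, and 158, 26 and 17 for Hmr1 and D. mauritiana. It was 10 with a minimum of 5 reads for the hybrid and D. mauritiana. Alternatives chosen after seeing the data left out single 5′ ends or counted the outer-block R1 and Gypsy6A_LTR sequences once. Counted so, the main strand in Hmr1 had T first in 44.5% and A at base 10 in 24.7%. Without its 2 leading ends, D. mauritiana had 67.1% plus-strand reads, 62.9% with T first and 24.3% with A at base 10, and without the leading Hmr1 end 10-nt overlaps were 33.3% in the hybrid and 10.7% in Hmr1.
With 412 hybrid and 167 D. mauritiana reads, differences in single sequences between these libraries were mostly not detectable.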

Other observations

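Sequences with several genomic hits are also listed in the window, 3229 of them, with 781 reads in hybrid testes, 12875 in Hmr1 testes and 315 in D. mauritiana testes. Each is listed at 1 of its places, so its reads may belong elsewhere. The hybrid level was 0.152 times that of Hmr1 (0.141 to 0.163), and the ratio of the single-hit sequences was 1.30 times this (1.15 to 1.48). The hybrid-to-D. mauritiana ratio was 1.88 (1.64 to 2.15), close to that of the single-hit sequences, which was 0.995 times it (0.792 to 1.25). Their mean length was 25.2 nt in hybrid testes, 24.7 nt in Hmr1 testes and 25.0 nt in D. mauritiana testes, with the most frequent length at 25 nt in all of these libraries.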
